A study of Drosophila melanogaster with 4 samples.

Results

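The subject is the thin filament of muscle, represented by 10 genes of Drosophila melanogaster that encode its actins (Act57B, Act87E, Act79B, Act88F), tropomyosins (Tm1, Tm2), troponin T (up), troponin I (wupA) and troponin C (TpnC73F, TpnC47D). The genes were chosen by name for their role. Each one matched a single locus of the authors' deposited Cuffdiff table, so 10 of 16198 loci are described. The comparison was between whole larvae homozygous for the allele kr-h1[7] and wild type larvae whose strain the labels do not name, both in the third instar, 100 h after the eggs were laid. Juvenile hormone induces Kr-h1, a transcription factor with zinc fingers. Polyadenylated RNA was sequenced from 2 libraries per group, and the authors combined them into 1 FPKM value per gene and group (fragment counts scaled to transcript length and to sequencing depth). No value below therefore carries a replicate error, and the depth of the libraries is unknown.

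In striated muscle the thin filament is a double strand of actin subunits along which tropomyosin dimers lie end to end. Troponin sits on tropomyosin and has a calcium-binding subunit (troponin C), an inhibitory subunit (troponin I) and a subunit that anchors the complex to tropomyosin (troponin T). Calcium binding moves tropomyosin aside so that myosin heads of the thick filament can pull on actin. Drosophila has several muscle actin genes used in different muscles. Act57B and Act87E are known from larval body wall muscle, Act88F from the indirect flight muscle and Act79B from other adult muscles.

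Kr-h1 itself had 9.79 FPKM in mutant-labelled and 2.98 FPKM in wildtype-labelled larvae, so it was 3.28-fold higher, and not lower, under the mutant label (q = 0.000889 in the authors' deposited table). The cause was not tested. The groups are called mutant-labelled and wildtype-labelled throughout, and every direction below rests on these labels. Summed over all loci, the table held 543224 FPKM in the mutant-labelled and 566151 FPKM in the wildtype-labelled group.

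Transcripts of 5 of the 10 thin filament genes were called lower in mutant-labelled larvae, by 1.07-fold to 1.40-fold. Of the 10 genes, 8 were tested by the authors. Among these 8, Act57B, Tm1, Tm2, up and TpnC73F were called lower (5 genes), none was called higher, and Act87E, wupA and TpnC47D were not called. Calls were made at a deposited Cuffdiff q-value of 0.05 or below. At an unadjusted p under 0.05 the count was 6 of 8, and none of these was higher. The share of all tested loci at that looser threshold was not computed, so this count has no background here. The shares that follow are for calls by q-value. Over all 7058 tested loci, 8.73% were called lower and 4.32% higher. The tested thin filament genes are all abundant, and the share called lower was larger among abundant loci, at 34.9% of the 668 loci with a mean of 100 FPKM or more and 36.9% of the 336 loci with a mean of 250 FPKM or more. On the authors' scaling the mutant-labelled value was the lower one in all 8 tested genes, whatever their q-value. The same held for 53.5% of all tested loci, 61.1% of those at 100 FPKM or more and 57.1% of those at 250 FPKM or more. Tm1 turned when centred on loci of similar length, and wupA when centred on loci of similar length or abundance. The log2 ratio of Act87E was only -0.0028 under both centrings, and that of Tm1 only -0.014 when centred by abundance. The median log2 ratio of the 8 genes was -0.16, against -0.03 over all tested loci and -0.07 over tested loci at 100 FPKM or more. Ratios are log2 of mutant-labelled over wildtype-labelled FPKM, each with a pseudocount of 1. The median of the 8 was -0.10 when both groups were scaled to an equal FPKM sum, -0.08 when it was centred on loci of similar abundance, and -0.24 without Tm1 and Act87E, whose loci are shared with other entries of the table. The larvae were sequenced whole, so less muscle per larva and less of these transcripts per muscle cell cannot be told apart.

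**Figure D1:**
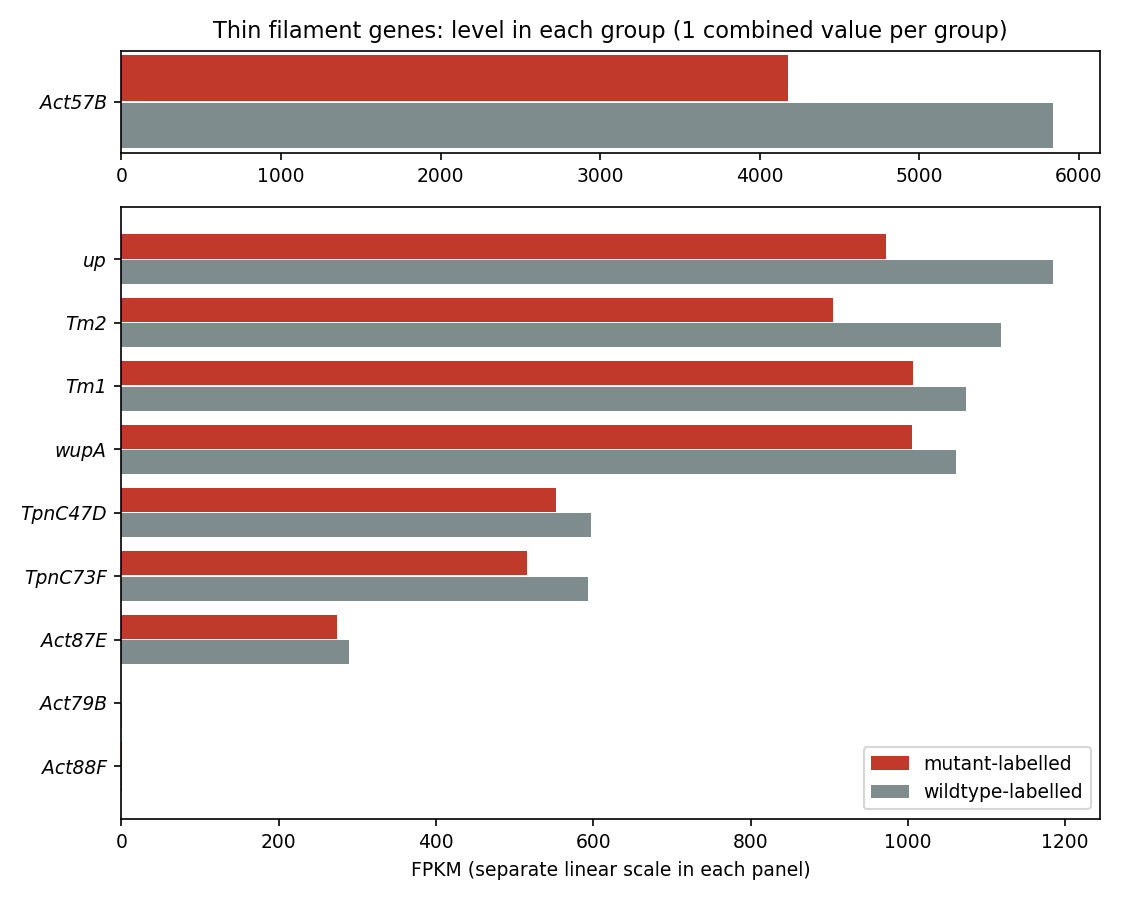
FPKM of the 10 thin filament genes, with 1 combined value per group and no error bar: mutant-labelled larvae in red above wildtype-labelled larvae in grey, with Act57B on its own scale. Act57B stood at 4178 FPKM against 5842 FPKM, 7 genes lay between 274 and 1185 FPKM, and Act79B and Act88F were too low to be seen.

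The largest difference among the tested genes was in Act57B, the most abundant of the actin genes. It lies on chromosome arm 2R at positions 20944021 to 20946431 (plus strand) and had 4178 FPKM in mutant-labelled larvae, against 5842 FPKM in wildtype-labelled larvae. This made it the 9th most abundant of all loci in the mutant-labelled and the 6th in the wildtype-labelled group. It was 1.40-fold lower, with q = 0.000889 in the authors' deposited table. That is the smallest q-value the table holds, and Tm2, up and TpnC73F share it with other loci. The locus also carries a small nucleolar RNA gene that lies within Act57B, so its value is that of both.

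The actin gene Act87E (arm 3R, 13425833 to 13428375, plus strand) had 274 FPKM in mutant-labelled and 290 FPKM in wildtype-labelled larvae. These values were 1.06-fold apart, and the gene was not called (q = 0.303 in the authors' deposited table). An antisense non-coding gene, lncRNA:CR45591, shares this locus and was listed at 0 in both groups. Act57B was 15.3 times as abundant as Act87E in mutant-labelled larvae and 20.2 times in wildtype-labelled larvae. The actin genes encode near-identical proteins, and fragments from their similar coding sequences could have been divided between them, so the split between single actin genes is uncertain.

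The actins of adult muscle were close to 0. Act88F (3R, 15439969 to 15442177) had 0.589 FPKM in mutant-labelled and 0.385 FPKM in wildtype-labelled larvae. Act79B (3L, 21985210 to 21987190) was listed at 0 in mutant-labelled and at 0.399 FPKM in wildtype-labelled larvae. The authors tested neither gene, and no direction can be read from values this low without the number of fragments behind them. Other genes known from adult or flight muscle were as low, and they are named here after their values had been seen. The troponin C genes TpnC4 and TpnC41C were listed at 0 in both groups, and the flight muscle gene fln (flightin) had 0.441 FPKM in mutant-labelled larvae and was listed at 0 in wildtype-labelled larvae.

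Both tropomyosin genes were called lower, by different amounts. Tm2 (3R, 15310193 to 15315197, plus strand), which encodes a muscle tropomyosin, had 904 FPKM in mutant-labelled and 1118 FPKM in wildtype-labelled larvae, a 1.24-fold lower level (q = 0.000889 in the authors' deposited table). Its neighbour Tm1 (3R, 15281371 to 15308779, same strand) ends 1413 nucleotides before Tm2 starts, and it encodes muscle as well as cytoskeletal tropomyosins. Tm1 had 1006 FPKM in mutant-labelled and 1074 FPKM in wildtype-labelled larvae, 1.07-fold lower (q = 0.00792 in the authors' deposited table). Only 1 of the 616 loci called lower had a smaller fold than Tm1. The table gives 1 value for the 17 transcript accessions of Tm1, so its muscle and cytoskeletal forms cannot be separated. Genes on the opposite strand overlap the Tm1 gene: CG45218 (5.87 FPKM in mutant-labelled, 4.18 FPKM in wildtype-labelled larvae), which shares its locus in the table, and l(3)neo43 (14.3 and 18.6 FPKM in the same order of groups). Their values were far below that of Tm1. With these differences, Tm2 stood at 0.899 times the level of Tm1 in mutant-labelled larvae and at 1.04 times in wildtype-labelled larvae.

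Of the 4 troponin genes, up and TpnC73F were called lower, and wupA and TpnC47D were not called. The gene up (upheld, X, 13593474 to 13602578, minus strand), which encodes troponin T, had 973 FPKM in mutant-labelled and 1185 FPKM in wildtype-labelled larvae, 1.22-fold lower (q = 0.000889 in the authors' deposited table). The fold of up was close to the 1.24-fold of the tropomyosin gene Tm2 and larger than the 1.07-fold of the tropomyosin gene Tm1. The gene wupA (wings up A, X, 18105568 to 18116922, minus strand), which encodes troponin I, had 1005 FPKM in mutant-labelled and 1061 FPKM in wildtype-labelled larvae. Its values were 1.06-fold apart and it was not called, with an unadjusted p of 0.014 and q = 0.0832 in the authors' deposited table. Whether the difference between up and wupA exceeds the replicate error was not tested, because the table holds 1 value per group.

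The calcium-binding subunit is encoded by several troponin C genes, of which TpnC73F and TpnC47D are known from larval muscle. TpnC73F (3L, 17046063 to 17048390, plus strand) had 516 FPKM in mutant-labelled and 593 FPKM in wildtype-labelled larvae, 1.15-fold lower (q = 0.000889 in the authors' deposited table). TpnC47D (2R, 11273845 to 11275286, minus strand) had 553 FPKM in mutant-labelled and 597 FPKM in wildtype-labelled larvae, 1.08-fold apart and not called (q = 0.307 in the authors' deposited table). The pair had almost the same level in both groups, with TpnC73F at 0.933 times TpnC47D in mutant-labelled and 0.992 times in wildtype-labelled larvae.

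**Figure D2:**
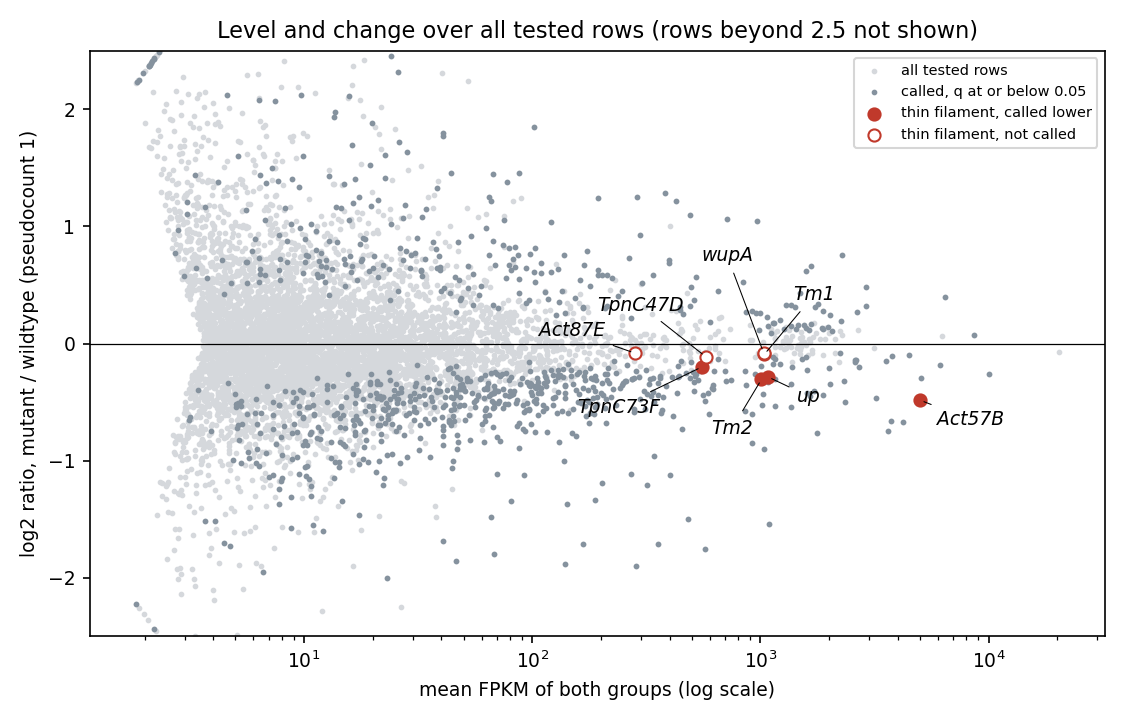
Log2 ratio of mutant-labelled over wildtype-labelled FPKM (pseudocount 1) against the mean FPKM of both groups on a log scale, for all tested loci (light grey), called loci (dark grey) and thin filament genes (red, filled where called lower). On the authors' scaling the 8 tested thin filament genes lie below 0, between -0.48 (Act57B) and -0.08 (wupA, which centring by length or abundance moved to about 0), and the points of Tm1 and wupA lie almost on each other.

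The order of the levels differed in its middle part. In mutant-labelled larvae it ran Act57B, Tm1, wupA, up, Tm2, TpnC47D, TpnC73F, Act87E, with Act88F and Act79B near 0. In wildtype-labelled larvae it ran Act57B, up, Tm2, Tm1, wupA, TpnC47D, TpnC73F, Act87E, with Act79B and Act88F near 0. Both groups thus had Act57B first, the tropomyosin, troponin T and troponin I genes next, then the troponin C genes and Act87E. Among Tm1, Tm2, up and wupA, neighbours in the order were within 1.08-fold of each other in mutant-labelled and 1.06-fold in wildtype-labelled larvae. No spread between libraries was available to say which of these neighbours differ.

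Summed by subunit, the actin genes held most of the decrease. The 4 actin genes came to 4452 FPKM in mutant-labelled and 6133 FPKM in wildtype-labelled larvae, 1.38-fold lower. The tropomyosin genes summed to 1911 FPKM in mutant-labelled and 2192 FPKM in wildtype-labelled larvae (1.15-fold lower), and the troponin genes together to 3046 FPKM and 3436 FPKM in these groups (1.13-fold lower). Over all 10 genes the sum was 9410 FPKM in mutant-labelled and 11760 FPKM in wildtype-labelled larvae, and Act57B alone made up 70.8% of that difference. Without Act57B the remaining 9 genes summed to 5231 FPKM in mutant-labelled and 5918 FPKM in wildtype-labelled larvae, 1.13-fold lower. The 10 genes took 1.73% of the FPKM total in the mutant-labelled and 2.08% in the wildtype-labelled group.

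Because FPKM is scaled to length, levels can be set against each other between subunits. Transcript of the muscle actin genes was 2.33 times that of the tropomyosin genes in mutant-labelled larvae and 2.80 times in wildtype-labelled larvae. The cytoplasmic actins Act5C and Act42A were left out of this ratio, and the split from them is uncertain. The cytoskeletal forms of Tm1 were included. Troponin C, summed over both genes, stood at 1.06 times troponin I in mutant-labelled and 1.12 times in wildtype-labelled larvae. Troponin T stood at 0.968 times troponin I in mutant-labelled and 1.12 times in wildtype-labelled larvae. The troponin subunits, which occur in equal numbers in the complex, were thus at similar transcript levels in both groups. The muscle actin transcripts were less in excess of the tropomyosin transcripts in mutant-labelled larvae.

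**Figure D3:**
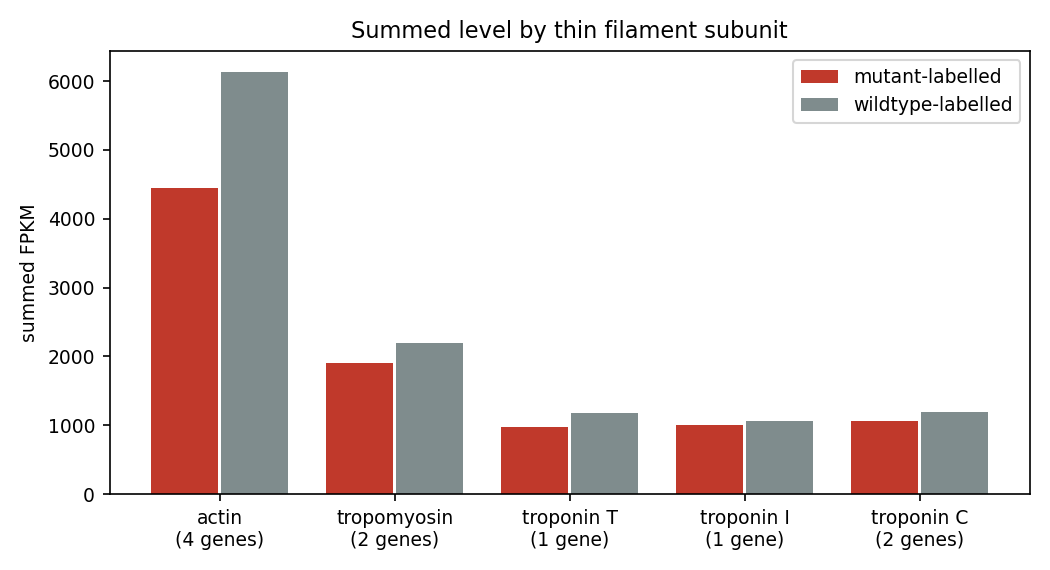
Summed FPKM of the genes of each thin filament subunit, mutant-labelled (red, left) beside wildtype-labelled larvae (grey, right), with 1 combined value per group and no error bar. The actin bars lie furthest apart, at 4452 FPKM and 6133 FPKM, and the troponin I bars are the closest pair, at 1005 and 1061 FPKM.

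The thin filament genes share no single genomic position. They lie on 3R (4 genes), 3L, 2R and X (2 genes each). Tm1 and Tm2 are adjacent, and Act88F starts 124.8 kb beyond the end of Tm2. The genes up and wupA are on the X chromosome, 4503 kb apart, and only up was called. Exonic length also varied among them. Over 7044 tested loci with a known exonic length, length and log2 ratio had a Spearman correlation of -0.13, given as a description since all points share the same libraries. With the loci divided into 10 length classes of about equal size, the median log2 ratio was 0.12 in the shortest class and -0.11 in the longest. Tm1, with 9804 nucleotides of exon over all its isoforms, falls in the longest class, and its ratio of -0.09 became 0.013 when centred on the median of that class. Its lower level therefore did not keep its direction under this centring. The ratios of the other called genes stayed negative under it, at -0.45 for Act57B, -0.21 for Tm2, -0.19 for up and -0.20 for TpnC73F. For TpnC47D, a short gene of 791 nucleotides that was not called, centring on length moved the ratio to -0.21, against -0.11 before. The part of length in these results was not tested further.

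**Figure D4:**
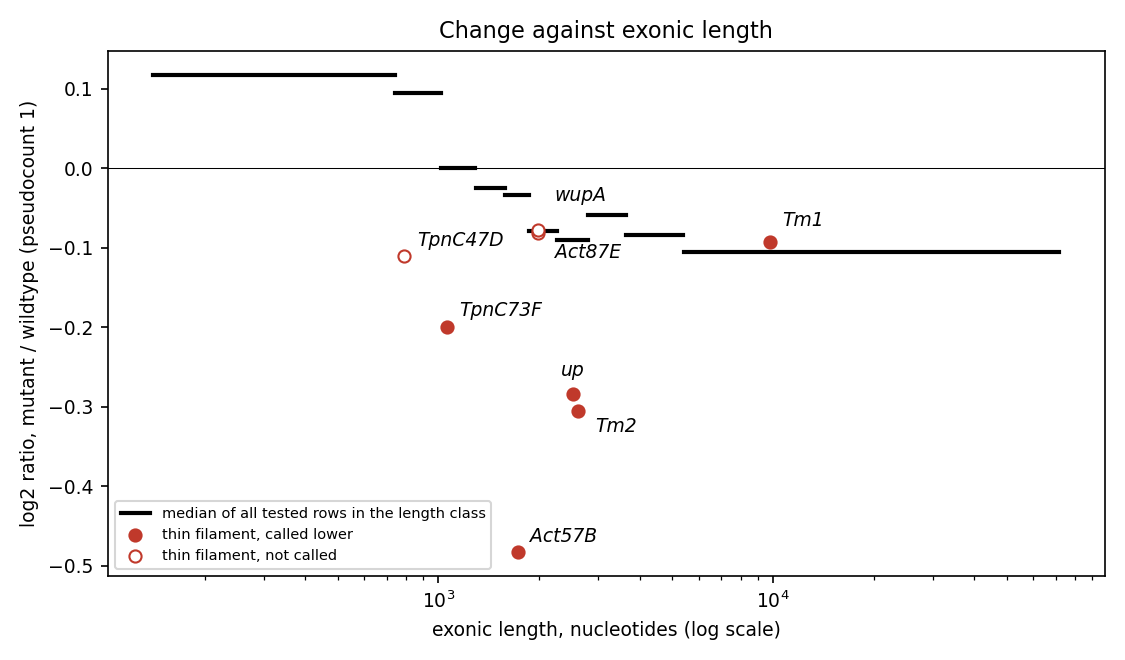
Log2 ratio of mutant-labelled over wildtype-labelled FPKM (pseudocount 1) against exonic length on a log scale, for the 8 tested thin filament genes (red, filled where called lower), with the median of all tested loci in each of 10 length classes (black lines). Act57B, Tm2, up, TpnC73F and TpnC47D lie below the line of their class, Act87E lies almost on it, and Tm1 and wupA lie on or just above it.

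The list of other actin genes and genes that act on actin filaments held calls in both directions. Of 12 listed genes 10 were tested, with 3 called lower and 1 higher (30.0% and 10.0%), and their median log2 ratio was -0.05. Over all tested loci 8.73% were called lower and 4.32% higher. The cytoplasmic actin gene Act5C had 1068 FPKM in mutant-labelled and 1205 FPKM in wildtype-labelled larvae, 1.13-fold lower, and Act42A had 136 FPKM and 159 FPKM in these groups, 1.17-fold lower (q = 0.000889 for Act5C and 0.0457 for Act42A in the authors' deposited table). The third gene called lower, named after its value was seen, was tmod, which encodes the pointed-end cap tropomodulin. It had 17.5 FPKM in mutant-labelled and 24.4 FPKM in wildtype-labelled larvae, 1.40-fold lower, in an entry that shares its locus with another. The cofilin gene tsr, whose product severs actin filaments, was 1.14-fold higher, with 641 FPKM in mutant-labelled and 564 FPKM in wildtype-labelled larvae (q = 0.0407 in the authors' deposited table). This entry shares its locus with another, and the call was lost at a q-value of 0.01 or below. The profilin gene chic had 345 FPKM in mutant-labelled and 329 FPKM in wildtype-labelled larvae and was not called. The muscle actins summed to 3.70 times the cytoplasmic actins Act5C and Act42A in mutant-labelled larvae and to 4.50 times in wildtype-labelled larvae. This ratio rests on how fragments were divided between similar actin genes, which is uncertain.

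The thick filament, the Z-disc and the calcium store are the partners of the thin filament in the sarcomere. For scale, 8.73% of all tested loci were called lower, and 34.9% of those with a mean of 100 FPKM or more. Among thick filament and giant protein genes, 7 of 9 tested members were called lower and none higher, and the median log2 ratio was -0.41. The sum of this list was 1.15-fold lower, against 1.25-fold for the thin filament genes. Ratios of the other lists were not centred by exonic length. The myosin light chain genes Mlc2 and Mlc1 were among those called. Mlc2 had 2462 FPKM in mutant-labelled and 2715 FPKM in wildtype-labelled larvae, and Mlc1 had 1152 FPKM and 1298 FPKM in these groups, 1.13-fold lower. Mf, which encodes myofilin of the thick filament, had 905 FPKM in mutant-labelled and 983 FPKM in wildtype-labelled larvae and was not called (q = 0.0752 in the authors' deposited table). The myosin heavy chain gene Mhc had 326 FPKM in mutant-labelled and 500.4 FPKM in wildtype-labelled larvae, 1.53-fold lower, which is a larger fold than that of any tested thin filament gene. In the Z-disc and LIM protein list 4 of 7 tested genes were called lower and none higher, with a median log2 ratio of -0.24. Here Mlp60A, a muscle LIM protein gene, had 1302 FPKM in mutant-labelled and 1454 FPKM in wildtype-labelled larvae and was not called, whereas Zasp66 had 261 FPKM and 307 FPKM in these groups (1.18-fold lower, called). Mlp84B, another muscle LIM protein gene, was 1.41-fold lower and the entry of Actn (alpha-actinin) and usp 1.34-fold lower. The remaining gene called lower, named after its value was seen, was the filamin gene cher. These 4 called genes all share their loci with other entries.

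Of the calcium handling and energy genes, 3 of 5 tested members were called lower and none higher, with a median log2 ratio of -0.42. Over all tested loci 8.73% were called lower, and 34.9% of those with a mean of 100 FPKM or more. The arginine kinase gene Argk1 had 1368 FPKM in mutant-labelled and 1831 FPKM in wildtype-labelled larvae, 1.34-fold lower. The gene of the sarcoplasmic reticulum calcium pump, SERCA, had 280.3 FPKM in mutant-labelled and 382 FPKM in wildtype-labelled larvae, 1.36-fold lower. The SERCA entry shares its locus with another. The ryanodine receptor gene RyR, which encodes the calcium release channel, had 5.59 FPKM and 9.08 FPKM in these groups and was 1.62-fold lower. The junctophilin gene jp, with 20.06 FPKM in mutant-labelled and 19.3 FPKM in wildtype-labelled larvae, was not called. Each gene called lower in this list had q = 0.000889 in the authors' deposited table. Against the 1.07-fold to 1.40-fold of the called thin filament genes, these folds and that of Mhc were of similar or larger size. A difference between the lists was not tested.

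**Figure D5:**
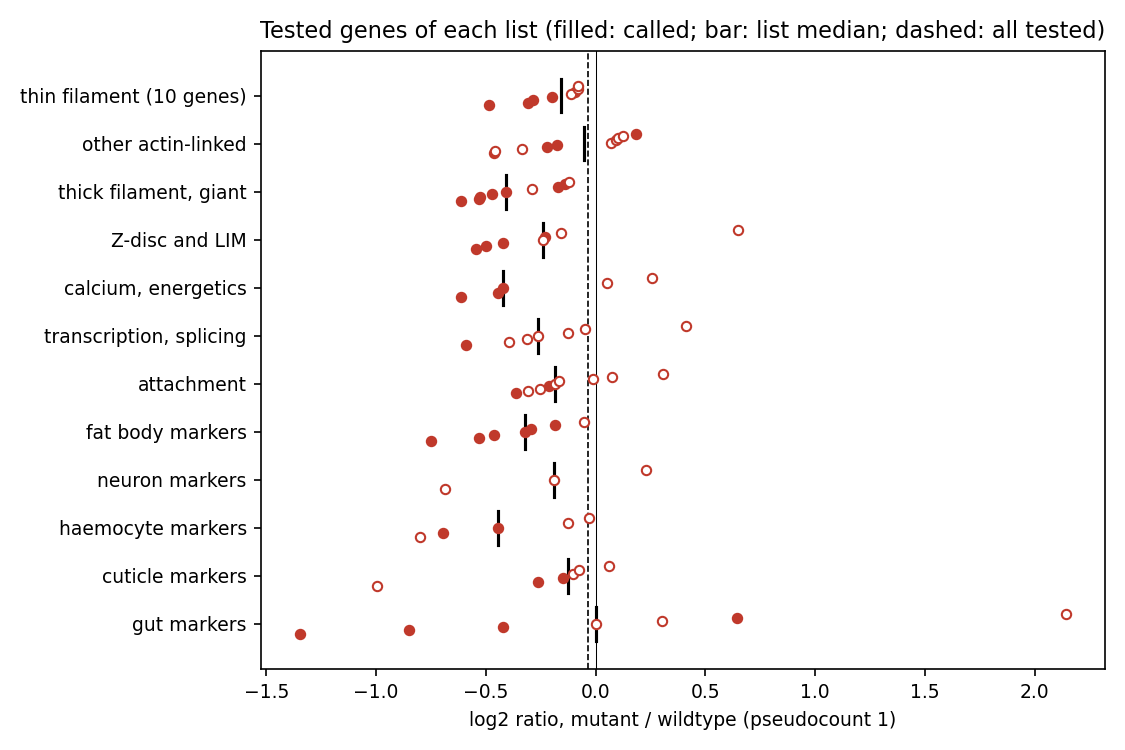
Log2 ratio of mutant-labelled over wildtype-labelled FPKM (pseudocount 1) of each tested gene in the thin filament group and in 11 other lists, filled where called, with the list median (bar) and the median of all tested loci at -0.03 (dashed line). On the authors' scaling all thin filament points lie left of 0, as do all those of the thick filament, fat body and haemocyte lists. When centred by length, Tm1 and wupA moved to or just above 0 and Act87E to just below it.

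Some markers of other tissues were also called lower in the same larvae, and no matched marker of the 5 tissue lists was at 0 in either group. Over all tested loci 8.73% were called lower and 4.32% higher. Among loci with a mean of 100 FPKM or more, where all fat body markers lie, 34.9% were called lower. Of the fat body markers 6 of 7 were called lower and none higher, with a summed level of 18222 FPKM in mutant-labelled and 23507 FPKM in wildtype-labelled larvae (1.29-fold lower). Their most abundant genes were Lsp1gamma (5760 FPKM in mutant-labelled, 6553 FPKM in wildtype-labelled larvae) and Lsp1beta (4548 and 5571 FPKM in this order), both of which encode larval serum proteins. Of the cuticle markers 2 of 6 tested were called lower, none was higher, and the sums were 38723 FPKM in mutant-labelled and 41690 FPKM in wildtype-labelled larvae. Lcp4 had 19773 FPKM and Lcp3 had 9133 FPKM in mutant-labelled larvae, against 20804 FPKM and 10964 FPKM in wildtype-labelled larvae. Of the gut markers 3 of 7 were called lower and 1 higher (Mal-A1, in a shared locus and named after its value was seen). No other gut marker had a lower mutant-labelled value, and the median log2 ratio of the gut list was 7.6e-05. The 7 gut markers summed to 1670 FPKM in mutant-labelled and 2358 FPKM in wildtype-labelled larvae. Among these, betaTry had 659 FPKM in mutant-labelled and 1187 FPKM in wildtype-labelled larvae, and Jon25Bii had 456 FPKM in both. Of the haemocyte markers 2 of 5 tested were called lower and none higher, and all 5 had a lower mutant-labelled value. The list summed to 68.9 FPKM in mutant-labelled and 93.8 FPKM in wildtype-labelled larvae. The called genes were Pxn, at 18.02 and 24.9 FPKM in these groups, and crq, at 15.8 and 26.2 FPKM. Both share their loci with other entries, so the haemocyte count was 0 without shared loci, and it was 1 at a q-value of 0.01 or below. None of 3 tested neuron markers was called in the authors' deposited table from Cuffdiff. At an unadjusted p under 0.05 the count was 1, with no background computed. That gene, named after its value was seen, was elav, with 2.78 FPKM in mutant-labelled and 5.09 FPKM in wildtype-labelled larvae. The list of 7 summed to 35.6 FPKM in mutant-labelled and 38.5 FPKM in wildtype-labelled larvae. Among these, Syx1A, in an entry with eIF4EHP, had 14.4 FPKM and 16.6 FPKM and Syt1 had 14.2 FPKM and 11.9 FPKM in these groups. The part of tissue composition in the thin filament result was not tested.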

How the data were processed

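All values come from 1 gene-level table that the authors made with Cuffdiff and deposited. TopHat2, Cufflinks and Cuffdiff are named in the submitters' processing notes; for versions, settings, genome build and strand setting, they are not given in the sources used here. Per the file headers, FPKM values were made by the authors with 1 value per group of 2 libraries, and the deposited log2 fold change is mutant over wildtype without a pseudocount. Cuffdiff's deposited test statistic, a score, was not used. Cuffdiff also gave the deposited p-values and q-values, and the q-values matched a Benjamini-Hochberg adjustment of the deposited p-values. The labels do not say whether libraries of a group came from separate collections of larvae, so p-values may measure technical spread. The status column marks 7058 of 16198 loci as tested by the authors, 9135 as not tested and 5 as having too many fragments.

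Accessions were matched to NCBI Release 6 symbols, with synonyms that name a single gene allowed (30273 of 30529 matched). Coordinates are those of the table with a 1-based start, and all 10 thin filament loci overlapped the Release 6 gene. Strands and exonic lengths (union of exons) come from Ensembl release 115. A called gene has a deposited q-value of at most 0.05. No test was computed here, since the table holds no value per library. The computation of counts was tested on simulated data. All 10 thin filament genes are named. Of each other list up to 4 tested genes of highest mean FPKM are named (up to 2 for other tissues), and exceptions are stated. The cuticle list name Lcp5 matched more than 1 gene and was left out. The genes, lists and alternatives were chosen with earlier results of these data known. Computations ran in Python 3.11.15 with pandas 2.3.3 and numpy 2.4.6, and figures were drawn with matplotlib 3.10.9.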

Additional observations from a re-analysis of the deposited data

How the results depend on the processing

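No thin filament gene was called higher under any of the 5 other call rules. The count of 5 called lower was 0 where a fold of at least 1.5 was required, and otherwise 4 or 5. Over all tested loci the 921 calls became 570 at a q-value of at most 0.01, 583 without loci shared with another entry and 457 with a fold of at least 1.5. In the 11 other lists together, 35 calls became 20 without shared loci and 8 with a fold of at least 1.5. Without the 20 most abundant loci, Act57B among them, the share of the thin filament genes was 1.19% in mutant-labelled and 1.31% in wildtype-labelled larvae. The ratio of Tm1 turned to 0.013 when centred on the median of its class of exonic length, which was set by the union of all its isoforms. The ratio of wupA, not called, moved to 0.00093 when centred by length and to 0.00087 when centred by abundance. That of Act87E, also not called, moved to -0.0028 under both. The median of the 8 tested genes stayed negative under every scaling and pseudocount tried, between -0.20 and -0.08. Whether the calls hold without 1 library could not be computed. No paired analysis was possible because the table holds 1 combined value per group. With the depth unknown, Act79B and Act88F cannot be read for a direction.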

Other observations

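Regulators and attachment genes of muscle were measured in the same larvae at much lower levels than the 8 tested thin filament genes. Of 7 tested transcription and splicing factors, 1 was called lower and none higher, and the median log2 ratio was -0.26. Over all tested loci 8.73% were called lower. The called gene was sd (scalloped), a TEAD family transcription factor, with 11.0 FPKM in mutant-labelled and 17.0 FPKM in wildtype-labelled larvae, 1.55-fold lower (q = 0.00163 in the authors' deposited table), in an entry that shares its locus with others. The homeodomain gene exd (17.5 FPKM in mutant-labelled, 21.2 FPKM in wildtype-labelled larvae), the splicing factor gene mbl (14.6 and 19.4 FPKM) and hth (8.38 and 10.6 FPKM) were not called. Mef2, which encodes a transcription factor known to drive muscle structural genes, is named after its value was seen: it had 8.86 FPKM in mutant-labelled and 9.19 FPKM in wildtype-labelled larvae and was not called (q = 0.886 in the same table).

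Of 9 tested genes for muscle attachment, 2 were called lower and none higher, with a median log2 ratio of -0.18, against 8.73% called lower over all tested loci. Tig (tiggrin), an extracellular matrix ligand of integrin, had 40.2 FPKM in mutant-labelled and 46.7 FPKM in wildtype-labelled larvae, 1.16-fold lower (q = 0.00367 in the authors' deposited table). The Tig entry shares its locus with another. The integrin subunit gene if (inflated), named after its value was seen, was the other gene called lower (11.6 and 15.2 FPKM, 1.31-fold lower). It had q = 0.0337 in the authors' deposited table, and its call was lost at a q-value of 0.01 or below. The genes stck (38.2 FPKM in mutant-labelled, 36.3 FPKM in wildtype-labelled larvae), Ilk (21.7 and 24.5 FPKM) and parvin (26.6 and 26.8 FPKM, in an entry with Alr), which encode linkers between integrin and actin, were not called.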
